A study of Lates calcarifer with 24 samples.

Results

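Asian seabass (Lates calcarifer), a carnivorous food fish, were reared on a pelleted commercial feed, Feed E, and their livers were compared with those of siblings fed frozen baitfish, Feed A. The 4 liver arrays titled Group E were set against the 4 titled Group A, out of 24 arrays in 6 feed groups of 4. Fish were 107 days post-hatch and weighed 77.3 ± 22.4 g at the start, and after 61 days of feeding they were sampled at 168 days post-hatch. Group E received the pellet and Group A the frozen baitfish, at a larger wet ration that was set to give the same energy. Groups B, C, D and F received 4 other commercial pellets. The ration of Groups B, C and D was that of Group E, as a share of body weight. Group F was fed less, the most its fish would eat, and so had a lower daily energy intake. The authors left Group F out of their analysis for that reason. All fish came from 1 pairwise cross of broodstock chosen for fast growth, so they are siblings and not a sample of the species. Feed E came in a single pellet size, for which reason the authors left Group E out of their own analysis. The ingredients of the commercial feeds were unknown to them.

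Liver is where a fish builds and exports most of its lipid and plasma proteins. Long-chain polyunsaturated fatty acids (PUFAs) are either eaten ready-made, as from marine prey, or made from shorter plant-derived precursors by alternating desaturation and elongation. Desaturases and elongases of this route and the enzymes of sterol synthesis are known in many vertebrates to be transcribed more when the diet supplies less of their end products. The liver also makes acute-phase proteins that recognise microbial products, and it hosts resident immune cells.

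Each array carried 60080 probes besides controls, of which only 15 could be tied to a gene symbol. Of the spots on 1 array, 22.3% to 32.9% were well above background in Group E and 21.6% to 29.8% in Group A. The arrays lay on 3 slides that differed in brightness. Group E had 1 array on slide 1, 1 on slide 2 and 2 on slide 3, against 2, 1 and 1 in Group A, and slide was therefore kept in the fit. Arrays of Group E correlated with each other at a median r of 0.943 to 0.953 over 11065 bright probes, and those of Group A at 0.910 to 0.921. The median SD of a probe over 4 arrays was 0.37 log2 in Group E and 0.55 log2 in Group A, over the same probes. These were well above background on all 4 arrays of Group E (10539 probes) or of Group A (9151 probes). More probes thus entered through Group E, so the r and SD of the 2 groups are not on equal terms. serpina1, whose product alpha-1-antitrypsin is a major secreted protein of hepatocytes, gave 17.56 to 18.45 log2 in Group E and 17.72 to 18.51 log2 in Group A and was well above background on all 8 arrays. Markers of blood, pancreas or fat had no named probe and were not checked. In whole liver, fewer cells of a type and less RNA per cell cannot be told apart.

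The letter E has a limit that bears on every result below. Array fold changes listed in the qPCR supplement gave a check of the titles. For the column listed under Group C, the arrays titled Group E came within 0.05-fold for 11 of 15 probes, against 4 of 15 for the arrays titled Group C. The column listed under Group D was matched to the same tolerance for 11 of 15 probes by the arrays titled Group F, against 1 of 15 by those titled Group D. The column listed under Group B was matched best by the arrays of its own title, for 9 of 15 probes. The mean absolute distance from the Group C column was 0.057 log2 for the arrays titled E and 0.256 for those titled C. From the Group D column it was 0.062 log2 for the arrays titled F and 1.02 for those titled D. From the Group B column it was 0.027 log2 for the arrays titled B. The arrays titled Group E may therefore hold the fish that the paper calls Group C, and which pellet they ate cannot be settled from the labels. A coarser measure runs with the titles, the rank of DET counts against Group A, which the study took from its own fit. The study ranks its Groups C, B and D in this order from fewest to most, and the arrays of those titles rank likewise. If Group C were the arrays titled E and Group D those titled F, Group B would have the most. Which letters are right is therefore not settled. Group A has no column of fold changes, since it is the baseline there. Letters below are those of the sample titles.

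Against Group A, 13 transcripts differed in Group E by 2-fold or more at an adjusted p below 0.05 (DETs; limma, Benjamini-Hochberg over all 60080 probes), which is 0.0216% of those tested. Of these, 10 were higher and 3 lower in Group E. An unadjusted p below 0.05 (SETs) was reached by 6021 transcripts, 10.0% of all, with 3299 higher and 2722 lower. The DET count depended on single fish: it was 261 without Group E replicate 2, 109 without Group A replicate 2, 44 without Group A replicate 1 and 24 without Group A replicate 4, and 4 without any of the other 4 arrays. It also depended on the many dim probes. Among the 11065 probes well above background on all 4 arrays of Group E or of Group A, 456 were DETs (4.12%), 320 of them higher and 136 lower in Group E. That selection keeps probes bright in only 1 of the groups; 219 of the 456 were bright on all 8 arrays. Of the 456, 436 had the same direction within all 3 slides. This follows in part from how DETs are chosen, and the share over all bright probes was not computed. A filter that ignores the groups, on at least 4 of all 24 arrays, was added after seeing the data and gave 211 DETs.

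The groups did not overlap on a share of the transcripts in each direction. In 1122 of 60065 probes with complete values (1.87%) every Group E array exceeded every Group A array, and in 990 (1.65%) every Group E array was below every Group A array. With no difference between the groups, a fraction of 0.0286 of probes would be expected to separate fully, both directions together. Most of these counts would therefore be expected without any difference. Of the 320 higher DETs among the bright probes, 190 had their lowest Group E value in replicate 2, against 25, 45 and 60 in replicates 1, 3 and 4. The same count over all bright probes was not made, so whether this is particular to these DETs cannot be said. Detection was less even than level. All 4 Group E arrays and no Group A array were well above background for 81 probes, and the reverse held for 8. Over all probes, 10539 were well above background on all 4 Group E arrays and 9151 on all 4 Group A arrays, and Group A had 2 arrays on the dimmer slide 1 against 1 in Group E. The part of these in the imbalance was not tested. Each of these 81 was also well above background on at least 1 of the 16 arrays of the other pellet groups, and 41 were so on at least 12 of them. Of the 8 detected in Group A and not in Group E, 1 was dim on all 16 of those arrays.

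The values of the 15 named genes are a description, since all but fads2 and elovl5 had been picked for qPCR from differences between these same livers, so they are not independent evidence of a direction. None was a DET, against 0.0216% of all probes. Of the 15, 10 were SETs, against 10.0% of all probes, with 9 higher and 1 lower in Group E. The median difference of the 15 was 0.69 log2, and that of all probes was -0.0043 log2. Every Group E array exceeded every Group A array in 8 of 15 genes, against 1.87% of all probes, and no gene showed the reverse (1.65% of all). With 4 arrays against 4, full separation always gives 0.0286, the lowest p that the exact two-sided permutation test can reach. For these 8 genes that value therefore only restates the non-overlap. In tlr8a neither of the closest arrays was well above background. Among the bright probes 13 of the 15 were tested and 5 became DETs, against 4.12% of all bright probes. Of these, lbp was bright on all 8 arrays, whereas fads2, elovl5, tnfsf14 and acp5a passed that filter through Group E alone, so their calls there are not support for a difference.

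**Figure D1:**
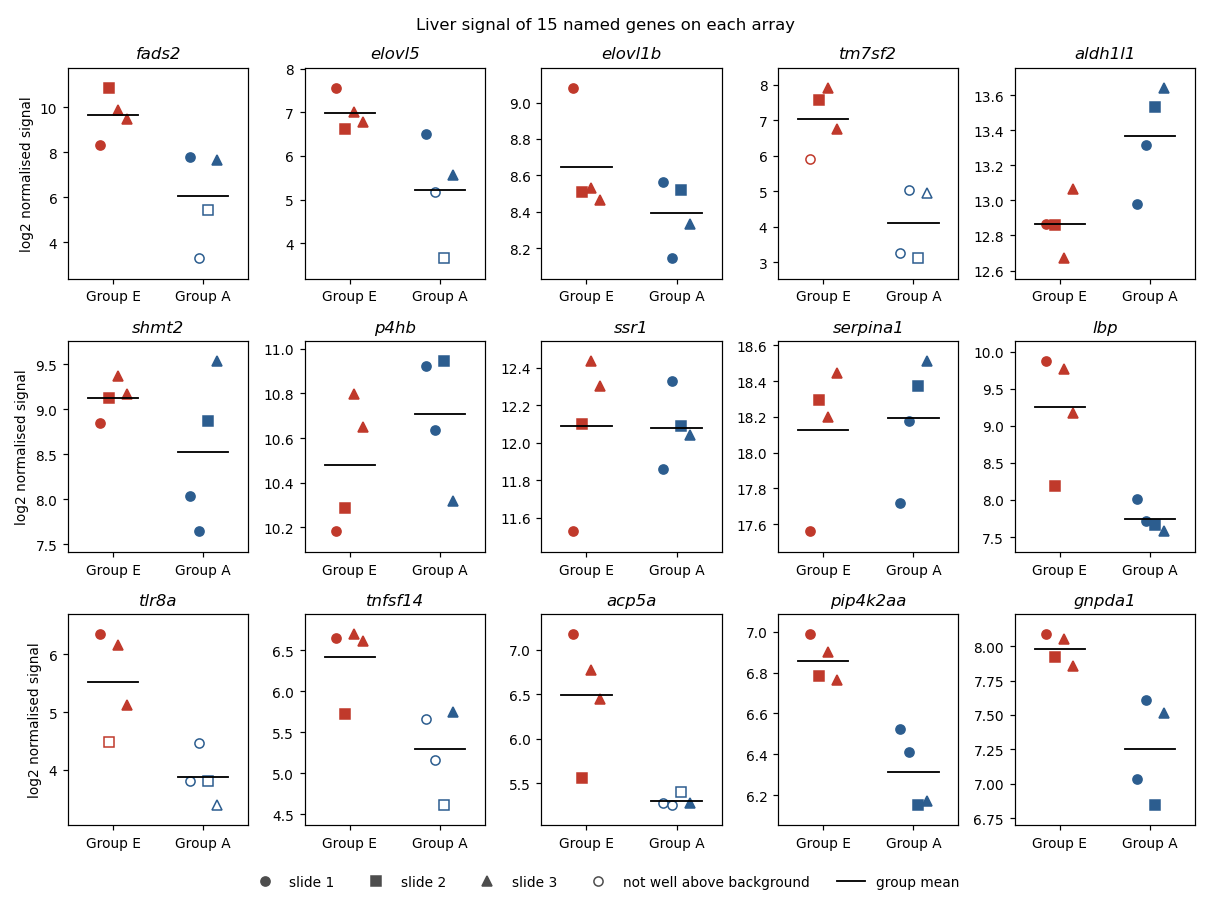
Quantile-normalised liver signal (log2, a separate vertical scale in each panel) of the 15 named genes, with each point 1 array of Group E (red) or Group A (blue), its shape the slide, open where the probe was not well above background, and the line the group mean. The 4 red points lie above the 4 blue ones in 8 genes, and the red square, Group E replicate 2, is the lowest red point in elovl5, lbp, tlr8a, tnfsf14 and acp5a.

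Genes of fatty acid and sterol synthesis come first. The primer pairs that the study's qPCR tables give for 3 of these transcripts, and for lbp of the immune genes, are printed 5′ to 3′ because those tables tie the gene names to the array probes. The qPCR values were not analysed here, and the probes' own sequences were not used. Capitals mark the last 5 bases at the 3′ end, from which the polymerase extends.
fads2 forward: atcgccatttccagcATCAC
fads2 reverse: atcccgtactccactGGTTG
elovl5 forward: gctcactgtagcgtgTTAGC
elovl5 reverse: ccatgagtagcagtgTGTGC
tm7sf2 forward: aagttcatttggagcCGCAG
tm7sf2 reverse: ggcgatggtttccagTCTTG
lbp forward: ccagtgttttccttcCAGCC
lbp reverse: tggggtctgggtaccATTTC

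fads2, the fatty acyl desaturase that opens the PUFA route, read 8.34, 10.85, 9.86 and 9.48 log2 on the Group E arrays, against 7.79, 3.30, 5.43 and 7.67 log2 on the Group A arrays. The groups did not overlap, although the spread was wide in both, with an SD of 1.04 log2 in Group E and 2.13 log2 in Group A. The probe was well above background on all 4 Group E arrays and on replicates 1 and 4 of Group A. The fitted difference was 3.43 ± 0.83 log2 (SE), with a 95% interval of 1.68 to 5.18 (limma, adjusted p = 0.12). Since 2 of the Group A arrays were dim, its size depends on the processing, and it was 2.26 log2 with normexp background correction and 2.34 log2 from the deposited table. It was 2.79, 5.42 and 2.0 log2 within slides 1, 2 and 3. Among the bright probes, which fads2 entered through Group E alone, its adjusted p was 0.024, which is not support for a difference.

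elovl5, which elongates products of that desaturase, read 7.56, 6.62, 7.0 and 6.77 log2 in Group E and 6.49, 5.17, 3.65 and 5.55 log2 in Group A. Its lowest Group E fish was just above its highest Group A fish, and again only replicates 1 and 4 of Group A were well above background. The difference was 1.98 ± 0.42 log2, with a 95% interval of 1.09 to 2.87 (limma, adjusted p = 0.080). It was smaller, 0.84 log2, with normexp and 0.94 log2 from the deposited table. Among the bright probes, which elovl5 too entered through Group E alone, its adjusted p was 0.016, again not support. elovl1b, an elongase of saturated and monounsaturated very-long-chain fatty acids, averaged 8.65 ± 0.29 log2 in Group E and 8.39 ± 0.19 log2 in Group A (SD, n = 4 each). Its difference of 0.28 ± 0.19 log2 had a 95% interval of -0.12 to 0.69, and a rise of up to 1.6-fold remains within that error.

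tm7sf2, the sterol C14-reductase of cholesterol synthesis, read 5.92, 7.57, 7.91 and 6.77 log2 in Group E and 3.27, 5.04, 3.12 and 4.96 log2 in Group A. It was well above background on Group E replicates 2, 3 and 4 and on no Group A array, so only a bound is measured: at least 3.16-fold higher in Group E, taking for each Group A array the higher of the probe's signal and the lowest signal well above background. The fitted difference was 2.74 ± 0.56 log2 (adjusted p = 0.072). It became a DET without Group A replicate 2 (adjusted p = 0.030), which was 1 of 20 alternatives, and under the filter on at least 4 of all 24 arrays, where its adjusted p was 0.030 as well. Without Group E replicate 1 the adjusted p was 0.22, and with normexp the difference was 1.04 log2. The filter on at least 4 of all 24 arrays, added after seeing the data, called 211 of 20637 probes. Under it fads2 (limma, adjusted p = 0.047), elovl5 (0.034), tlr8a (0.046) and lbp (0.049) were DETs too. The other named genes were not.

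Group E replicate 2 was the lowest Group E array in all 3 innate immune genes, as it was in elovl5. lbp, which encodes the acute-phase protein that binds bacterial lipopolysaccharide, read 9.87, 8.18, 9.77 and 9.17 log2 in Group E and 8.01, 7.72, 7.66 and 7.58 log2 in Group A, above background on all 8 arrays. Group E replicate 2 lay close to the Group A range and the other 3 well over it. The difference was 1.58 ± 0.37 log2, or 2.99-fold (adjusted p = 0.11). Within slides it was 2.0, 0.52 and 1.89 log2. Without Group E replicate 2 it was 2.0 log2 with an adjusted p of 0.013, and without Group E replicate 1 it was 1.39 log2 with an adjusted p of 0.32.

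tlr8a, a toll-like receptor of endosomes that senses single-stranded RNA, read 6.34, 4.49, 6.16 and 5.13 log2 in Group E and 3.82, 4.47, 3.81 and 3.40 log2 in Group A, where it was well above background on no array. Group E replicate 2 was not well above background either, and lay barely above the highest Group A array. The bound is at least 1.18-fold, and the fitted difference was 1.73 ± 0.40 log2 (adjusted p = 0.11). Without Group E replicate 2 it was 2.24 log2 (adjusted p = 0.0082), without Group E replicate 1 it was 1.43 log2 (adjusted p = 0.32), and with normexp background correction it was 0.54 log2. tnfsf14, a cytokine of the TNF superfamily, averaged 6.42 ± 0.47 log2 in Group E and 5.30 ± 0.52 log2 in Group A (SD, n = 4 each), and the groups overlapped by 1 fish, Group E replicate 2 at 5.72 log2. Its difference was 1.11 ± 0.28 log2, or 2.16-fold (limma, adjusted p = 0.13). Among the bright probes, which it entered through Group E alone, the adjusted p was 0.033, which is not support. Group E replicate 2 was the sole Group E array on slide 2. On that slide tlr8a read 6.66 log2 in Group B, 5.87 and 5.82 in Group C, 6.49 and 6.39 in Group D and 5.97 in Group F. Each of these was above the arrays of the same group on the other slides. In Group A it read 3.81 log2 there, within the range of the other arrays. By contrast, tnfsf14 on slide 2 was the lowest of its group in Group A (4.62 log2) and Group B (5.57). It read 6.25 and 5.72 in Group C, 7.60 and 7.17 in Group D and 6.66, the highest of its group, in Group F. The part of slide in the low values of Group E replicate 2 was not tested.

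acp5a, a tartrate-resistant acid phosphatase known in mammals from macrophages and osteoclasts, was likewise lowest in replicate 2 among the Group E fish. It read 7.17, 5.56, 6.78 and 6.44 log2 in Group E and 5.28, 5.26, 5.41 and 5.28 log2 in Group A, where only replicate 4 was well above background. The Group A fish were the tightest of any named gene, at an SD of 0.066 log2. The difference was 1.21 ± 0.34 log2 (limma, adjusted p = 0.18). Among the bright probes, which acp5a entered through Group E alone, its adjusted p was 0.046, which is not support. Without Group E replicate 2 the difference was 1.64 log2 (adjusted p = 0.018). Without Group E replicate 1 it was 0.90 log2 (adjusted p = 0.47).

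Smaller differences, with little spread in Group E, were found for a pair of enzymes of lipid signalling and sugar metabolism. pip4k2aa, a phosphatidylinositol phosphate kinase, averaged 6.86 ± 0.11 log2 in Group E and 6.31 ± 0.18 log2 in Group A, with no overlap and a difference of 0.62 ± 0.18 log2, or 1.54-fold (adjusted p = 0.20). gnpda1, which converts glucosamine-6-phosphate to fructose-6-phosphate, averaged 7.98 ± 0.11 log2 in Group E and 7.25 ± 0.37 log2 in Group A, a difference of 0.69 ± 0.19 log2, or 1.61-fold (adjusted p = 0.17). In both genes all 8 arrays were well above background and each of the 3 slides gave a higher mean in Group E.

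The 2 folate enzymes had differences of opposite sign. aldh1l1, the cytosolic 10-formyltetrahydrofolate dehydrogenase, read 12.87, 12.86, 12.67 and 13.06 log2 in Group E and 12.98, 13.32, 13.53 and 13.64 log2 in Group A. The groups overlapped by the highest Group E fish and the lowest Group A fish. The difference was -0.62 ± 0.23 log2, with a 95% interval of -1.11 to -0.12 (adjusted p = 0.34). shmt2, the mitochondrial serine hydroxymethyltransferase, averaged 9.13 ± 0.21 log2 in Group E and 8.52 ± 0.85 log2 in Group A and overlapped fully. Its fitted difference of 0.37 ± 0.21 log2 had an interval of -0.07 to 0.80.

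No gene of protein secretion was a SET. p4hb, the disulphide isomerase of the endoplasmic reticulum, had a difference of -0.31 ± 0.19 log2 (95% interval -0.71 to 0.09). ssr1, a subunit of the translocon-associated complex, had -0.14 ± 0.18 log2 (-0.51 to 0.24), and serpina1 had -0.22 ± 0.17 log2 (-0.58 to 0.14). The groups overlapped in all 3 genes, and the sign for ssr1 turned when slide was left out of the fit. The intervals still allow a fall of 1.4- to 1.6-fold.

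Among the 13 DETs, every Group E array lay on the same side of every Group A array, and each slide gave the same direction. That the groups do not overlap and that the slides agree both follow in part from how DETs are chosen. For 5 of the 13 the probe was well above background in both groups, so that a fold was measured. For 7 it was dim on all arrays of 1 group, and 1 was dim in both. None of these probes has a gene name in the files used here, and they are given by design number.

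**Figure D2:**
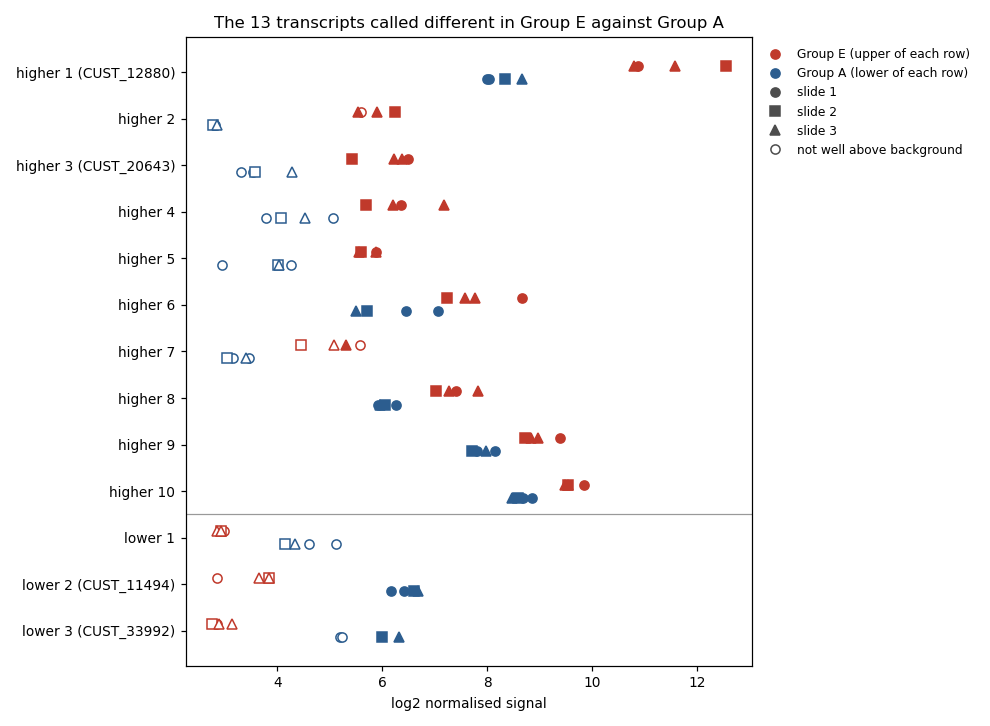
Quantile-normalised signal (log2) of the 13 DETs on each array, with Group E (red) in the upper and Group A (blue) in the lower line of each row, ordered by fitted change. Shapes give the slide and open symbols mark probes not well above background; the 2 sets of points are apart in all 13 rows, and CUST_12880 is well above background on all 8 arrays.

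The transcript that rose most, CUST_12880, read 10.88, 12.55, 10.80 and 11.59 log2 in Group E and 7.99, 8.04, 8.34 and 8.67 log2 in Group A. All 8 arrays were well above background, and the lowest Group E fish exceeded the highest Group A fish by over 2 log2. The rise was 3.15 ± 0.39 log2, or 8.85-fold (adjusted p = 0.0065). It was a DET in 17 of 21 alternatives of processing, test or arrays used. It was higher than in Group A with each other pellet too, by 3.01 log2 in Group B, 5.0 in Group C, 4.81 in Group D and 4.84 in Group F.

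CUST_20643 rose as well, at 6.49, 5.42, 6.37 and 6.22 log2 in Group E against 3.31, 3.53, 3.57 and 4.27 log2 in Group A. No Group A array was well above background, so the rise was at least 1.78-fold (fitted 2.41 ± 0.35 log2, adjusted p = 0.032). It was a DET in 10 of 21 alternatives. The other 8 higher DETs had fitted differences of 1.03 to 2.99 log2. Of these, 4 were well above background on all 8 arrays. The smallest pair of rises, 1.03 log2 each, were among them.

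CUST_11494 was detected with baitfish alone. It read 2.85, 3.84, 3.84 and 3.66 log2 in Group E, none well above background, and 6.40, 6.17, 6.61 and 6.67 log2 in Group A, all well above background. It fell at least 2.97-fold (fitted -2.99 ± 0.16 log2, adjusted p = 7.0e-08) and was a DET in 19 of 21 alternatives. On the 16 arrays of the other pellets it was likewise never well above background, and the fitted differences from Group A were -3.46 in Group B, -3.62 in Group C, -3.68 in Group D and -3.57 in Group F. It was the single DET of the 8 probes well above background on all Group A arrays and on no Group E array.

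CUST_33992, named after its values were seen, read 2.84, 2.74, 3.14 and 2.89 log2 in Group E and 5.19, 5.24, 6.0 and 6.31 log2 in Group A, where replicates 3 and 4 were well above background. It fell at least 1.73-fold (adjusted p = 0.037) and was a DET in 5 of 20 alternatives. In Group F it read 5.21 and 6.41 log2 on replicates 3 and 4, both well above background, and 2.85 and 2.76 log2 on replicates 1 and 2. The remaining lower DET was well above background on none of the 8 arrays, so that no fold is given.

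The 5 pelleted feeds were set side by side against the same 4 Group A arrays, so their differences share the error of those fish. For fads2 the difference was 3.43 log2 in Group E, 2.70 in Group B, 3.16 in Group C, 4.27 in Group D and 3.23 in Group F. For elovl5 it was 1.98 in E, 2.28 in B, 2.62 in C, 2.32 in D and 1.34 in F. For lbp it was 1.58 in E, 1.70 in B, 1.33 in C, 2.41 in D and 1.15 in F. aldh1l1 varied in sign, at -0.62 in E, -0.47 in B, 0.21 in C, -1.73 in D and -0.24 in F. The DETs against Group A numbered 13 in Group E, 252 in B, 91 in C, 1472 in D and 19 in F. Among the probes well above background on all 4 arrays of Group E or of Group A they numbered 456, 660, 324, 1440 and 147 in the same order. That filter was set by Groups E and A, and the place of Group E among the pellets differed between the counts with and without it.

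**Figure D3:**
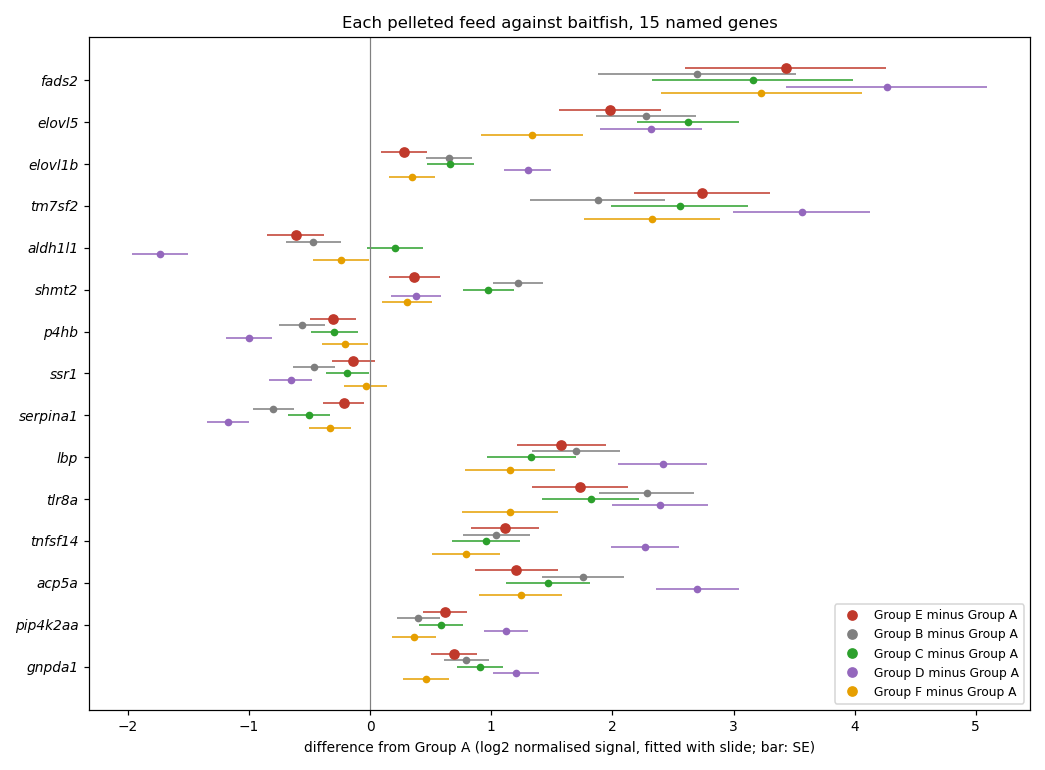
Fitted difference from Group A (log2, point, with its SE as the bar) of the 15 named genes for Group E (red, larger point) and Groups B, C, D and F, which all share the 4 Group A arrays. For fads2 the points run from 2.70 in Group B to 4.27 in Group D with Group E at 3.43, and for aldh1l1 from -1.73 in Group D to 0.21 in Group C with Group E at -0.62.

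The contrast of Group E with the other pellets holds no Group A level. The Group A arrays entered it only through the shared normalisation, the slide terms and the variance. It includes Group F, which was fed a smaller ration. Against the mean of Groups B, C, D and F, 3 transcripts were DETs (0.00499% of 60080), all higher in Group E, and 2886 were SETs (4.80%). Of the 15 named genes, 4 were SETs in this contrast. serpina1 was 0.48 ± 0.13 log2 higher in Group E (95% interval 0.20 to 0.77, adjusted p = 0.79), whereas elovl1b (-0.46 ± 0.15 log2), acp5a (-0.59 ± 0.27) and shmt2 (-0.36 ± 0.16) were lower. None passed the adjustment. For fads2 the difference from the other pellets was 0.09 log2 with an interval of -1.28 to 1.47, for elovl5 -0.16 (-0.86 to 0.54) and for tm7sf2 0.16 (-0.77 to 1.09), so differences of more than 2-fold for fads2 and tm7sf2 stay within the error.

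CUST_13087 was lower in Groups C and D than in any other group. It read 13.93, 13.07, 13.25 and 13.68 log2 in Group E, and 12.62 to 13.66 in Group B, 9.96 to 11.80 in Group C, 7.35 to 7.94 in Group D, 12.60 to 13.41 in Group F and 13.61 to 14.16 in Group A. All 24 arrays were well above background. Group E exceeded the mean of the other pellets by 2.31 ± 0.29 log2 (adjusted p = 0.019), and the distance lay mainly in Groups C and D. The difference was 5.80 log2 from Group D (adjusted p = 6.1e-07) and 2.56 from Group C (adjusted p = 0.12), against 0.34 from Group B and 0.54 from Group F. From Group A it was -0.41 ± 0.37 log2.

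The other 2 DETs were dim on all 16 arrays of the other pellets. CUST_50982 read 5.01, 5.06, 6.52 and 5.77 log2 in Group E, with replicates 2, 3 and 4 well above background, against 2.88 to 4.62 log2 in Groups B, C, D and F. In Group A it read 5.91, 6.85, 6.83 and 6.57 log2, and replicates 2, 3 and 4 were well above background. It was at least 1.56-fold higher in Group E than in the other pellets (fitted 2.21 ± 0.30 log2, adjusted p = 0.024), and -0.98 ± 0.38 log2 against Group A. Feed by feed, CUST_50982 differed by 2.41 log2 from Group D (limma, adjusted p = 0.016) and 2.47 from Group C (adjusted p = 0.13). It differed by 1.99 log2 from Group B (adjusted p = 0.39) and 1.95 from Group F (adjusted p = 0.40). The third transcript read 4.52, 5.72, 4.49 and 5.65 log2 in Group E, against 2.73 to 4.12 log2 with the other pellets and 3.59 to 4.43 log2 in Group A, dim on all those 20 arrays, and its bound against the other pellets was 1.11-fold (adjusted p = 0.024). All 3 calls were lost without Group E replicate 4 or without Group F replicate 4, and 1 call was left without any single array of Group C. There were 9 calls without Group E replicate 1 and 6 without Group E replicate 3.

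**Figure D4:**
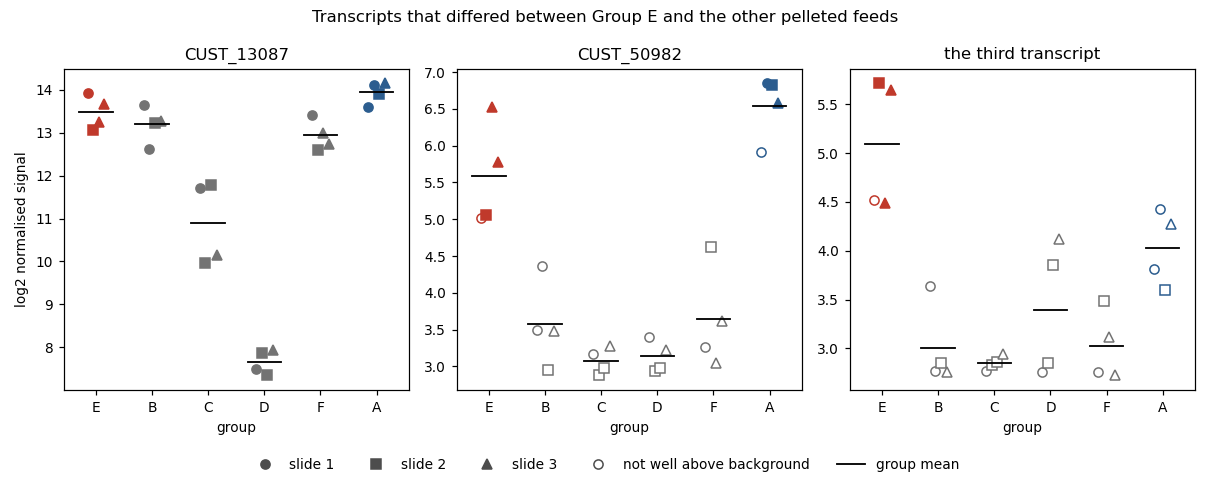
Quantile-normalised signal (log2, a separate scale in each panel) of the 3 transcripts that differed between Group E and the mean of Groups B, C, D and F, with each point 1 array, its shape the slide, open where not well above background, and the line the group mean. CUST_13087 runs from 13.07 to 13.93 in Group E and from 7.35 to 7.94 in Group D, while CUST_50982 is above background in Groups E and A alone.

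Feed by feed, Group E differed from Group D in 42 DETs (0.0699%), 33 of them higher in Group E, and 27 of the 42 were well above background on all arrays of both groups. The count was 66 without Group E replicate 1, 17 without Group E replicate 2, 20 without Group E replicate 4, 21 without Group D replicate 2 and 19 without Group D replicate 4. There was no DET (limma) against Groups B, C or F, where 2675 (4.45%), 1870 (3.11%) and 3410 (5.68%) transcripts were SETs, against 3594 (5.98%) for Group D. Leaving out single arrays gave up to 6 DETs against Group B, 1 against Group C and 3 against Group F.

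Of the 15 named genes, 10 were SETs between Groups E and D, 2 between E and B, 2 between E and C and 0 between E and F. Over all probes the shares were 5.98%, 4.45%, 3.11% and 5.68% in that order. All but fads2 and elovl5 had been picked for qPCR from differences between these livers, so these counts are a description. serpina1 alone had an adjusted p below 0.05 against Group D: it was 0.95 ± 0.17 log2 higher in Group E (adjusted p = 0.040), just under 2-fold. elovl1b was -1.02 ± 0.19 log2 (adjusted p = 0.058) and aldh1l1 1.12 ± 0.23 log2 (adjusted p = 0.089) in Group E relative to Group D. acp5a differed by -1.5 ± 0.34 and tnfsf14 by -1.16 ± 0.28 log2, at adjusted p of 0.15 and 0.16. In the 10 SETs against Group D, Group E was lower in 6 and higher in 4. shmt2 was a SET against both Group B and Group C, where it was lower in Group E, and passed the adjustment against neither.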

How the data were processed

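Liver RNA was labelled with Cy3 and hybridised to 24 custom Agilent arrays. The labels name 4 sampled fish and 4 biological samples per group, from which an array is taken as 1 fish; the methods extracted RNA from more fish per feed than were arrayed and do not say which were used. Per the file headers, the authors extracted each scan with Feature Extraction 10.7.1.1, which gives a background-subtracted intensity per spot and other yes or no flags, for a signal well above background, saturation and outliers. The deposited table holds log2 values; the authors used Partek and quantile normalisation. All its columns have a median of 6.25 log2 and correlate with the scanner values at r of 0.951 to 0.957 in Groups A to E. In Group F the columns of replicates 2, 3 and 4 matched the scanner arrays 4, 2 and 3 best and were so used in that alternative.

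Here the processed intensities of the non-control probes were taken, outlier spots were left out and repeat spots averaged, and all 24 arrays were quantile-normalised together and log2-transformed. A probe counted as well above background where more than 50% of its spots were. Each probe was fitted with limma 3.58.1 (R 4.3.3) on feed group and slide, with 16 residual and 1.23 prior degrees of freedom, and p-values were adjusted by Benjamini-Hochberg over all probes of 1 comparison. The fit was tested on simulated data. Of the 60080 probes, 48 lacked a value on at least 1 array; 0 columns were left unmatched, and no 2 arrays held identical values. Alternatives changed the slide term, normalisation, background correction, filter, variance, test or arrays used. The number of arrays limits the precision. Which canvas each fish came from is not in the labels.

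Members, gene roles and tests were chosen with earlier results of these data known. The named probes are the 15 paired with a symbol in the authors' qPCR tables, and by design number the 2 DETs that rose and fell most among those well above background on all 4 arrays of a group. A direction with at most 5 DETs may be named in full. Of the 15 symbols, 11 are in the RefSeq gene table (assembly TLL_Latcal_v3). On the side of a comparison that was dim on all its arrays, bounds used the higher of the probe's signal and that array's lowest signal well above background. Dim arrays on the other side kept their own signal. The bounds of tm7sf2, tlr8a, CUST_33992, CUST_50982 and the third transcript include such arrays and are therefore not strict. Lists of other pathways and cell types were not used, since their probes are not named.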

Additional observations from a re-analysis of the deposited data

Results flagged for a closer look

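Over the named transcripts and the 2 brightness measures, 66 sets of 4 arrays were looked at for a value far from the other 3 (Dixon's 95% limit), and 4 passed, where chance gives about 1 in 20. elovl1b stood at 9.08 log2 in Group E replicate 1, above the other Group E fish. tnfsf14 stood at 5.72 log2 in Group E replicate 2, below the others. acp5a stood at 5.41 log2 in Group A replicate 3, above the other Group A fish, in a group with an SD of 0.066 log2. The probe was not well above background on that array. CUST_15448, a DET higher in Group E, stood at 9.84 log2 in Group E replicate 1.

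Group E differed from the mean of Groups B, C, D and F in CUST_13087 (2.31 log2), CUST_50982 (2.21 log2) and the third transcript (2.01 log2). A difference from that mean is not a difference from each pellet, and for CUST_13087 it lay mainly in Groups C and D. Groups E and D differed in 42 transcripts.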

How the results depend on the processing

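For Group E against Group A, the 13 DETs became 456 among probes well above background on all 4 arrays of either group (320 higher, 136 lower) and 211 with the filter on all 24 arrays, which was added after seeing the data; 11 of the 13 were among these 211. There were 45 with slide as a random block (36 higher, 9 lower), 16 with no slide term, 9 when arrays were scaled to the 75th percentile of all probes, 4 with that percentile over the detected probes (3 higher, 1 lower), 4 with variances not moderated (3 higher, 1 lower), 5 with a prior variance that follows the signal, 3 from the 8 arrays alone (0 of them among the 13), 2 with normexp (1 higher, 1 lower), 2 from the deposited table (1 higher, 1 lower), 1 with a test against 2-fold, and 0 with the methods' t-test after adjustment, which had 2971 transcripts below 0.05 unadjusted. The 6021 SETs became 2823 among the bright probes and 429 with the test against 2-fold. Leaving out 1 array gave 4 to 261 DETs and 4613 to 7222 SETs. For Group E against the other pellets, the 3 DETs became 1 under either 75th percentile, with normexp and from the deposited table. There was also 1 among probes well above background on all 4 arrays of at least 1 pellet group. The 2886 SETs became 1897 with the percentile over the detected probes and 901 under that filter on the pellet groups. Leaving out 1 array gave 0 to 9 DETs and 2614 to 3294 SETs in this contrast. Without the slide term, 1 DET appeared against Group B and 3 against Group C. Leaving out 1 array gave 0 to 6 against B, 0 to 1 against C, 17 to 66 against D and 0 to 3 against F. The cause of these shifts was not tested, apart from the smaller number of probes or arrays that some alternatives use. Of the named transcripts, ssr1 alone changed sign, to 0.011 log2 without the slide term and with the methods' t-test, and leaving out 1 array moved it between -0.33 (without Group A replicate 4) and 0.016 (without Group A replicate 2).

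Group E and Group A share replicate numbers, but nothing says that a number pairs fish. Deviations of same-numbered arrays correlated at 0.20, -0.07, -0.03 and 0.20, and at -0.31, -0.04, 0.0011 and -0.15 once slide was removed. With a replicate block, 4 DETs were left against Group A (1 higher, 3 lower) with 7225 SETs, and 2 against the other pellets with 3884.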
